A study of Mus musculus with 23 samples.

Results

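The genes described are 9 that code for digestive enzymes of the pancreatic acinar cell: Amy2a5, Ctrb1, Cela1, Cela2a, Cela3b, Prss2, Cpa1, Cpb1 and Pnlip. They were listed by name out of the 22350 genes in the files, with the levels of these same libraries already known, and the contrast between mouse and organoid libraries belongs to that choice. It is therefore given as a description, with no test. The study profiled mRNA and ribosome footprints in mouse small intestine after loss of Rptor, which encodes the Raptor subunit of mTORC1, and holds 23 libraries from C57BL/6 mice. Ribosomes carried RPL22 with an HA tag and were pulled down with an HA antibody before footprints were sequenced. In the mice, tag and Rptor deletion were both induced by tamoxifen through an Lgr5-driven CreERT2, and lysates were made from whole frozen small intestine the day after. The 3 WT mice were Lgr5Cre.ERT2.RPL22.HA and the 3 Rptor fl/fl mice were Lgr5Cre.ERT2.Rptor.fl/fl.RPL22.HA. Crypt-derived organoids, which hold epithelium without pancreas or muscle, came from animals with the Cre under the Villin promoter, active across the intestinal epithelium. WT organoids were VillinCre.ERT2.RPL22.HA, with RNA-seq of 2 cultures in 4 libraries. Stem cell enriched (SCe) organoids had that genotype and were grown with 10 µM CHIR 99021 and 1.5 mM valproic acid, with RNA-seq and footprints from 3 cultures each. Rptor fl/fl organoids for RNA-seq (2 cultures, 4 libraries) were VillinCre.ERT2.Rptor.fl/fl. Those for footprints, from 3 cultures, also carried the tag and were VillinCre.ERT2.Rptor.fl/fl.RPL22.HA. Libraries of the same culture were summed. Levels are in CPM, the reads of a gene scaled to a library total of 1000000. The labels list the mice and the organoids other than SCe as untreated.

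Acinar cells make the digestive enzymes of pancreatic juice, store most of them as inactive zymogens in granules and release them into the duodenum on hormonal and nervous signals. Enteropeptidase on the duodenal brush border cuts trypsinogen, and trypsin then activates the other zymogens. Amylase and pancreatic lipase are secreted active. Their mRNAs are among the most abundant of the pancreas and are commonly used as its markers.

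Mapped reads per replicate ranged from 772077 to 8238388 in the mice, from 1106178 to 8257457 in organoid footprints and from 27439459 to 67598868 in organoid RNA. The labelled stem cell type was checked against Lgr5, which held 6.07 to 45.0 CPM in the mice and 204 to 652 in organoid footprints. Rptor, the deleted gene, held 32.1 to 35.4 CPM in the Rptor fl/fl mice and 40.4 to 45.9 in the WT mice (log2 fold change -0.28, edgeR adjusted p 0.150). In organoid RNA it was lower in Rptor fl/fl than in WT (log2 fold change -1.71, SE 0.08, edgeR adjusted p 0.00516). In organoid footprints it held 15.9 to 18.5 in Rptor fl/fl and 14.1 to 44.3 in SCe, which overlapped (log2 fold change -0.53, adjusted p 0.318). Lgr5 itself was lower in Rptor fl/fl than in WT organoid RNA (-1.80, adjusted p 0.0173), and in the mice it gave 1.02 (adjusted p 0.333), with Rptor fl/fl mouse 1 the highest.

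The sequences just before the transcription start are shown for 4 genes: Ctrb1 and Cela1, which also had reads in organoids, Prss2, which had 9 footprints and 2 RNA reads there, and Cpb1, the gene of the 9 that passed the test between the genotypes in the mice, a call that did not hold with DESeq2 or in 4 of the 6 fits without 1 mouse. Each run holds the 250 bases before the RefSeq start (GRCm38.p6), read 5′ to 3′ on the gene's strand. Capitals mark 3 motifs: CACCTG, a form of the E-box bound by bHLH factors, or CAGGTG on the other strand; TTTCCC, or GGGAAA on the other strand; and TATAAA on the gene's strand. The windows are chr8:111691011-111691260 (minus strand) for Ctrb1, chr15:100687921-100688170 (minus) for Cela1, chr3:20275734-20275983 (minus) for Cpb1 and chr6:41521526-41521775 (plus) for Prss2.
Ctrb1: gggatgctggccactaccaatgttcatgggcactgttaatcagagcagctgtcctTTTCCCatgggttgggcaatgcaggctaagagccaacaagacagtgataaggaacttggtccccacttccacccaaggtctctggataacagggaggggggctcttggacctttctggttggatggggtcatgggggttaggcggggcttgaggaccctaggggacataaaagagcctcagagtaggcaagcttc
Cela1: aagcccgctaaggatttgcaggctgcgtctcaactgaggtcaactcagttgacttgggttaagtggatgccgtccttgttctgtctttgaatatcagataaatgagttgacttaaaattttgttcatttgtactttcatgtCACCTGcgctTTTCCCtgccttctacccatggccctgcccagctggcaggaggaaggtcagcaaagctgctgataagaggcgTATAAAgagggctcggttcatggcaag
Cpb1: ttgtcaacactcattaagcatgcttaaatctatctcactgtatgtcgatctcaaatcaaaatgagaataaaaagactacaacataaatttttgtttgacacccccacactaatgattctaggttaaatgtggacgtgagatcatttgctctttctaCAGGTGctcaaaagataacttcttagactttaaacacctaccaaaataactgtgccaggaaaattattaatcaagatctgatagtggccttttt
Prss2: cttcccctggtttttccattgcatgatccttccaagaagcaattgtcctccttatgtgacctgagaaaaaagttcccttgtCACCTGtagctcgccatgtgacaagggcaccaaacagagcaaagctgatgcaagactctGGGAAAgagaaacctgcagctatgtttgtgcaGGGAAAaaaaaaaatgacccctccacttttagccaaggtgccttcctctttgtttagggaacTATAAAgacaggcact

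Over the 9 genes, CACCTG in either orientation was in 5 of these windows (Cela1, Cela2a, Cela3b, Cpb1 and Prss2), against 17.2% of the 32851 promoters of the same length. TTTCCC was in 5 (Cela1, Cela2a, Cpa1, Ctrb1 and Prss2), against 21.9%. TATAAA was in 4 (Amy2a5, Cela1, Pnlip and Prss2), against 7.59%. Cela1 and Prss2 held all 3 motifs. The matches are letters only, and no binding was measured.

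How far reads can be told apart between gene copies differs among the genes, since footprints are short. Each coding sequence was therefore split into windows of 28 bases and compared with every other protein-coding gene of GENCODE vM21. The coding sequence of Amy2a5 (1524 bases) was identical to those of Amy2a2, Amy2a3 and Amy2a4, and footprints cannot tell them apart. None of these copies is listed in the footprint files, so there the footprints of Amy2a5 may come from any of them. The RNA files also list Amy2a4, which held 0.0905 to 0.415 CPM in organoid RNA, so the RNA values of Amy2a5, at 0.117 to 0.232, do not cover all copies. Of the Cela3b windows, 44.2% were also in Cela3a, which held 0 footprints in the mice. In Prss2, 28.7% of windows were shared with other trypsinogen genes, most often Try4 (22.8%). Ctrb1, Cela1, Cela2a, Cpa1, Cpb1 and Pnlip shared none.

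The trypsinogen copies are near-identical around the activation site. The 54 bases shown code for residues 9 to 26 of each protein, in which the aspartate run DDDDK that enteropeptidase recognises starts at residue 19. Capitals mark bases unlike those of Prss2.
Prss2: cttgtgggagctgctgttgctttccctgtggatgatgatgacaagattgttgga
Try4: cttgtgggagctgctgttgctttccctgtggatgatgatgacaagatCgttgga
Try5: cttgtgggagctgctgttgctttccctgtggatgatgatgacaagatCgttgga
Try4 and Try5 each differ from Prss2 at 1 of the 54 bases. With the copies that were counted, the trypsinogen family summed to 393 to 1077 CPM in the mice and to 9 footprints in all organoid libraries, and those 9 were on Prss2.

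All 9 genes had footprints in every mouse, and amylase led. Amy2a5 (chr3:113247178-113258837, minus strand in GENCODE vM21) codes for the amylase that cuts starch. It held 2400.3, 1489.8 and 3343 CPM in the WT mice and 3061, 3205 and 3262 in the Rptor fl/fl mice. Among all genes it ranked between 24 and 82 by level in every mouse. The other enzyme genes ranked lower, from 161 (Ctrb1 at its best) to 2067 (Cela3b at its worst). Pnlip (chr19:58652498-58681788, plus strand), the lipase that splits dietary triglycerides, held 276, 182 and 402 in the WT mice and 271, 274 and 314 in the Rptor fl/fl mice.

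Among the serine proteases, Ctrb1 and Cela2a had the highest mean CPM after amylase. Ctrb1 (chr8:111686519-111691010, minus), a chymotrypsinogen, held 544, 303 and 815 CPM in the WT mice and 544, 728 and 801 in the Rptor fl/fl mice. Cela2a (chr4:141814962-141826160, minus), an elastase, held 435, 271 and 612 in WT and 445, 599 and 685 in Rptor fl/fl. The values of both genes overlapped between the genotypes, and WT mouse 2 had the lowest in each case. Cela1 (chr15:100674421-100687921, minus), another elastase, held 236, 140 and 349 in WT and 266, 287 and 317 in Rptor fl/fl. Prss2 (chr6:41521787-41525079, plus), a trypsinogen, held 219.9, 136 and 374 in WT and 261, 342 and 367 in Rptor fl/fl. Cela3b (chr4:137420999-137430540, minus) was the lowest of the 9, with 108, 84.6 and 209.7 in WT and 145, 198 and 210.5 in Rptor fl/fl. In all 3, WT mouse 2 was again the lowest.

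The carboxypeptidases remove residues from the ends of the peptides that the endopeptidases leave. Cpa1 (chr6:30639218-30645363, plus), which prefers aromatic and aliphatic ends, held 193, 112 and 268 CPM in the WT mice and 201, 258 and 255 in the Rptor fl/fl mice. Cpb1 (chr3:20248264-20275733, minus), which prefers basic ends, held 207, 132 and 313 in WT and 315, 342 and 371 in Rptor fl/fl. For Cpb1 alone, every Rptor fl/fl mouse was above every WT mouse, by a margin of 315 against 313.

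**Figure D1:**
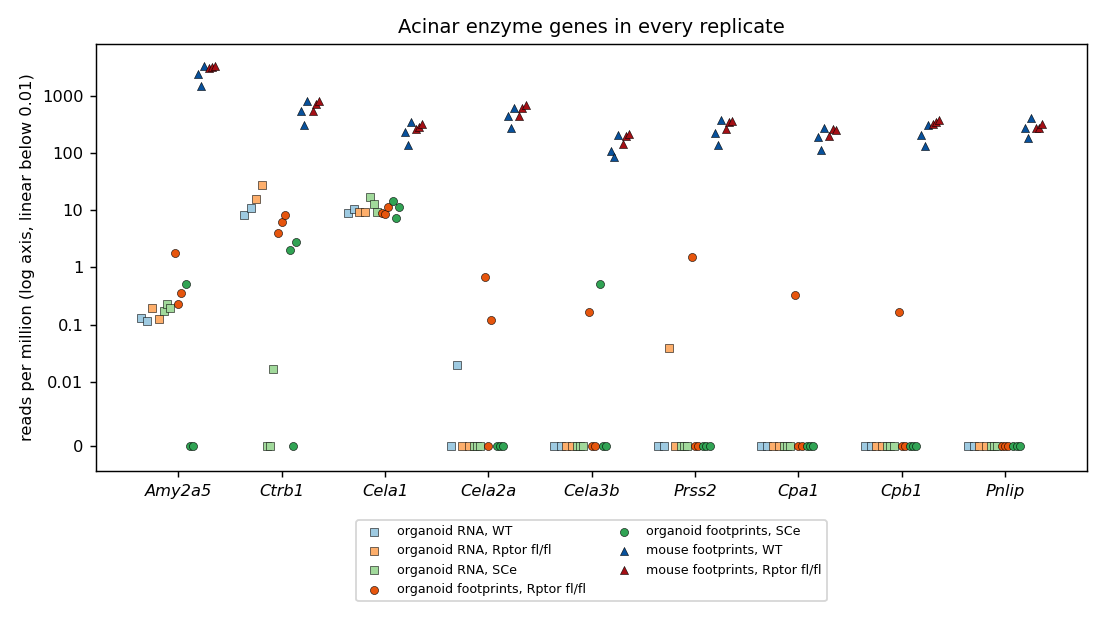
CPM (axis: reads scaled to a total of 1000000) of the 9 genes in every replicate (log axis, linear below 0.01); squares are organoid RNA, circles organoid footprints and triangles mouse footprints, coloured by group. Every mouse lies above 80 for every gene, while in organoids Cela1 and Ctrb1 reach 10 CPM or more and the other 7 stay under 2.

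Together the 9 genes took 0.462%, 0.285% and 0.669% of the footprints in the WT mice and 0.551%, 0.623% and 0.658% in the Rptor fl/fl mice, or 0.472% ± 0.192 and 0.611% ± 0.0549 (SD, n = 3 each). The Wilson 95% interval in the lowest of them, WT mouse 2, was 0.278% to 0.292%, which covers counting error only. In organoid footprints the sum was between 0.000723% and 0.00201%. The WT mice thus differed from each other by 2.35 times, well beyond counting error, and the Rptor fl/fl mice by 1.195 times. The lists for enterocytes, goblet cells, plasma and immune cells and smooth muscle differed among the same WT mice by 1.02 to 1.09 times. In bulk lysates, fewer cells of a type and less RNA per cell cannot be told apart.

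The order of levels changes once length is taken into account. On the scale of CPM per kilobase counted, Amy2a5 averaged 1631 ± 422 (SD, n = 6 mice) and Ctrb1 713 ± 226. Cela2a followed at 496 ± 148. Cela1 (376 ± 108) and Prss2 (345 ± 115) lay within each other's SD, and so did Cpb1 (206 ± 67.1), Pnlip (194 ± 48.2) and Cela3b (179 ± 61.8). Cpa1 had the lowest mean (139.5 ± 38.7) and lay below Cpb1 and Pnlip in each of the 6 mice. These SDs include the spread between mice that the genes share. The 9 genes varied together from mouse to mouse: over the 6 mice and 36 pairs of genes, Pearson r of log2(CPM + 1) had a median of 0.948 and ran from 0.769 (Cpb1 with Pnlip) to 0.993 (Ctrb1 with Cpa1). These values share library and depth and are a description.

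In organoid footprints 7 of the 9 genes were close to 0. Pnlip had 0 reads in all 6 organoid footprint libraries and in all 7 organoid RNA replicates. Summed over libraries, Cpb1 had 1 organoid footprint, Cpa1 and Cela3b had 2 each, Cela2a had 5, Prss2 had 9 and Amy2a5 had 16. The mice held between 4243 (Cela3b) and 70166 (Amy2a5) footprints of these genes. All 9 genes had every mouse above every organoid library, which 20.4% of the 18118 genes listed in both references with a footprint also did, and nothing is read from that count because the genes were chosen on this contrast.

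The size of the gap differed among the genes. Pooled over libraries, with intervals that cover counting error only, Amy2a5 was 5331 times as frequent in the mice (95% interval 3282 to 9327). Cpa1 was 3297 times (912 to 27228), Cela2a 3221 times (1379.8 to 9921) and Cela3b 2579 times (713 to 21301) as frequent. Prss2 was 1007 times as frequent (530.3 to 2203), and Cpb1, on its single organoid read, 8883 times (1594 to 350916). Pnlip was at least 2879.6-fold higher, taking a floor of 3 reads over the organoid libraries. At the other end stood Ctrb1 with 134 times (114 to 159) and Cela1 with 28.5 times (25.4 to 32.2). Summed with their counted copies, the amylases held 70433 footprints in the mice and 27 in organoids, and the trypsinogens 21629 and 9. The ratios of Amy2a5 and Prss2 therefore depend on how reads were assigned to copies. The mouse reference held more of the transcript's 5′ end than the organoid one, and counting those organoid entries too left all 9 genes above.

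Ctrb1 and Cela1 were the genes with steady reads in organoids, and their patterns differed. Ctrb1 held 8.22 and 10.8 CPM in WT RNA and 15.9 and 28.1 in Rptor fl/fl RNA. In SCe RNA it held 0, 0 and 0.0168, a single read among 154442373. Its organoid footprints were 4.00, 6.27 and 8.11 in Rptor fl/fl and 2.02, 0 and 2.83 in SCe. Ctrb1 RNA was thus near absent under the conditions that enrich stem cells and present in the other organoids.

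Cela1, by contrast, was present in every organoid group at like levels. Its RNA stood at 8.77 and 10.4 CPM for WT, at 9.31 and 9.16 for Rptor fl/fl and at 16.9, 13.1 and 9.43 for SCe. Its footprints were 8.84, 8.46 and 11.5 in Rptor fl/fl and 14.6, 7.23 and 11.6 in SCe. All of these lay below the lowest mouse, at 140 CPM.

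**Figure D2:**
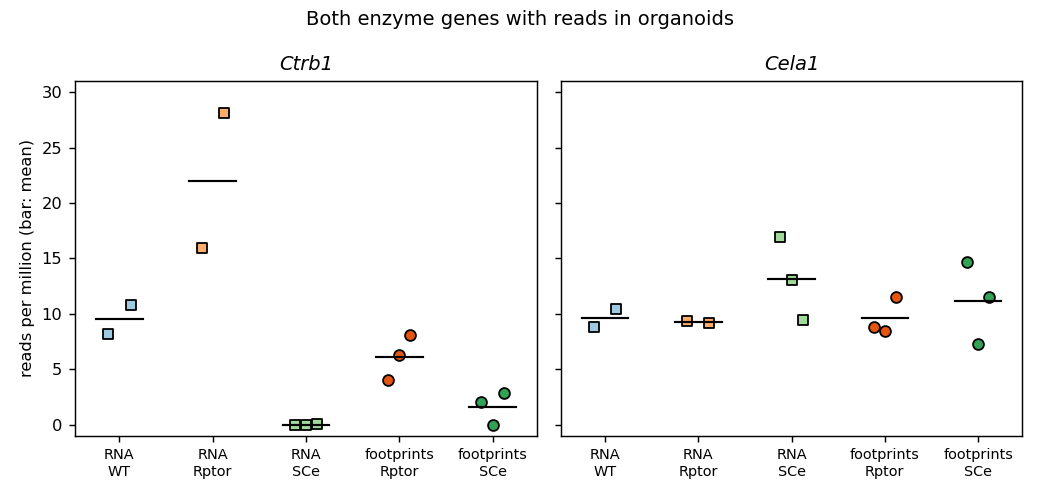
CPM (axis: reads scaled to a total of 1000000) of Ctrb1 and Cela1 in each organoid replicate (squares RNA, circles footprints; bar, group mean). Ctrb1 is at or near 0 in the 3 SCe RNA replicates and reaches 28.1 in Rptor fl/fl RNA, while Cela1 stays between 7.23 and 16.9 in all 13 replicates.

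The question of the organoid RNA comparison is what Rptor loss changes in mRNA. Of the 9 genes, 2 passed the filter on low counts and 0 passed the test against WT with edgeR, where 22.6% of 14131 genes did. At an unadjusted p under 0.05, a cut not counted over all genes, the count was 1. DESeq2 called 1, beside 3698 over all genes, and the gene was Ctrb1 in both cases. Ctrb1 was above both WT values in each Rptor fl/fl culture, as were 5493 of the 14131 genes tested. Ctrb1 gave a log2 fold change of 1.17 (SE 0.31, adjusted p 0.0573), but its size depended on the culture. It gave 1.53 (adjusted p 0.0339) without Rptor fl/fl culture 1, 0.71 (adjusted p 0.0929) without Rptor fl/fl culture 2, 0.99 (adjusted p 0.154) without WT culture 1 and 1.37 (adjusted p 0.0936) without WT culture 2. Each of these fits leaves 1 culture in a group, which is assumed to vary like the other group. Cela1 gave -0.10 (SE 0.12, adjusted p 0.589). The 2 cultures per genotype limit this comparison. Between the technical libraries of 1 culture, Ctrb1 ranged from 27.2 to 29.0 CPM in Rptor fl/fl 2 and from 14.3 to 17.3 in Rptor fl/fl 1, and none of the Rptor fl/fl libraries fell within the WT range of 7.23 to 11.7.

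Against SCe organoids, 1 of the 3 genes tested in RNA passed, where 42.7% of 15103 genes did. Ctrb1 was higher in Rptor fl/fl (adjusted p 0.00105). Pooled, the ratio was 3452 with a counting interval of 619 to 136392. Cela1 gave a log2 fold change of -0.51 (SE 0.23, adjusted p 0.130). Both of its Rptor fl/fl values were below the 3 SCe values, as for 4893 of the 15103 genes. Cela1 passed without SCe replicate 3 (-0.70, adjusted p 0.0442). Amy2a5, at 0.128 to 0.232 CPM, gave -0.42 (adjusted p 0.477).

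In organoid footprints, 2 of the 9 genes were tested and 0 passed with edgeR, where 16.5% of 10817 genes did. The count at an unadjusted p under 0.05, a cut not counted over all genes, was 1. DESeq2 called 0, beside 2214 over all genes. Ctrb1 gave a log2 fold change of 1.62 (SE 0.62, 95% interval 0.22 to 3.02, adjusted p 0.109) for Rptor fl/fl against SCe. Every Rptor fl/fl culture was above every SCe culture, as for 2008 of the 10817 genes. Cela1 gave -0.26 (95% interval -1.01 to 0.50, adjusted p 0.638). The sampling of Ctrb1 was thin, with 16 footprints over the 3 SCe cultures.

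The mouse comparison asks what Rptor loss in Lgr5-positive cells changes in ribosome occupancy. Of the 9 genes, 1 passed the test, where 13.4% of 11515 genes did, and that gene was Cpb1, higher in Rptor fl/fl by 0.70 on the log2 scale (SE 0.20, 95% interval 0.27 to 1.12, adjusted p 0.0307). It was also the 1 gene of the 9 with every Rptor fl/fl value above every WT value, which 11.3% of the genes tested showed. The other 8 overlapped between the genotypes and ranged from 0.05 (Pnlip, 95% interval -0.35 to 0.45, adjusted p 0.907) to 0.48 (Amy2a5, 95% interval 0.08 to 0.87, adjusted p 0.104). The median of the 9 was 0.44, beside -0.02 for all genes tested.

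These calls turned on single mice. Without WT mouse 3, the highest of the WT mice, 8 genes passed, all but Pnlip, and Cpb1 gave 1.17. Without WT mouse 2, the lowest, 0 passed, Cpb1 gave 0.42 and Pnlip gave -0.20. The count was also 0 without WT mouse 1, Rptor fl/fl mouse 2 or Rptor fl/fl mouse 3, and 2 without Rptor fl/fl mouse 1. Cpb1 was higher in Rptor fl/fl under each of these, with adjusted p from 0.000479 to 0.0963. Over all genes these fits called 897 to 1954, beside 1548 with every mouse, and 922 without WT mouse 3. DESeq2 called 0 of the 9, beside 969 over all genes. With edgeR 3 of the 9 had an unadjusted p under 0.05, a cut not counted over all genes.

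**Figure D3:**
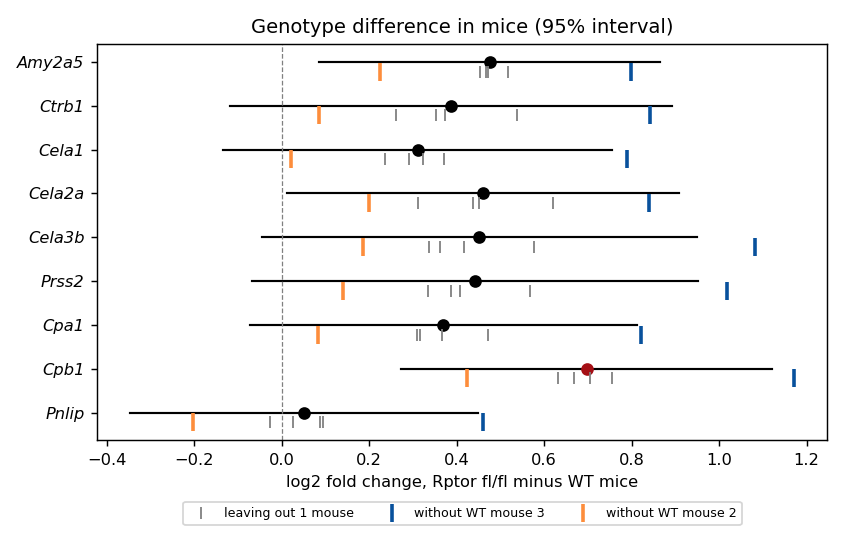
Log2 fold change of each gene, Rptor fl/fl minus WT mice (points, red where adjusted p is under 0.05; lines, 95% interval), with the values after leaving out 1 mouse as ticks below. Leaving out WT mouse 2 (orange) moves every gene to the left and leaving out WT mouse 3 (blue) moves every gene to the right.

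The make-up of the enzyme footprints varied less than their sum. As a share of the footprints on the 9 genes, Amy2a5 took 49.6% to 55.6% over the 6 mice and Ctrb1 took 9.88% to 12.2%. Cela2a took 8.08% to 10.4%, and each of the others under 7%. For 3 of the 9 genes the shares did not overlap between the genotypes, where 20.5% of the genes tested did so on the same scale. Cpb1 took 4.49% to 4.68% in the WT mice and 5.49% to 5.71% in the Rptor fl/fl mice. Pnlip took 5.97% to 6.39% in WT and 4.39% to 4.92% in Rptor fl/fl, and Cela1 4.91% to 5.22% in WT and 4.61% to 4.82% in Rptor fl/fl.

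The contrast of Cpb1 with Pnlip therefore varied little among the 3 mice of a genotype, with the pair picked after these shares were seen. There were 0.751, 0.722 and 0.779 Cpb1 footprints per Pnlip footprint in the WT mice and 1.16, 1.25 and 1.181 in the Rptor fl/fl mice. WT mouse 1 held 160 Cpb1 and 213 Pnlip footprints and WT mouse 2 held 283 and 392. No counting interval was taken for these ratios. The difference in log2 ratio was 0.67, beside SDs of 0.05 in WT and 0.06 in Rptor fl/fl (n = 3 mice each), and it is given without a test because the pair was picked for its separation. WT mouse 2, lowest in each of the 9 genes, did not stand apart in this ratio.

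**Figure D4:**
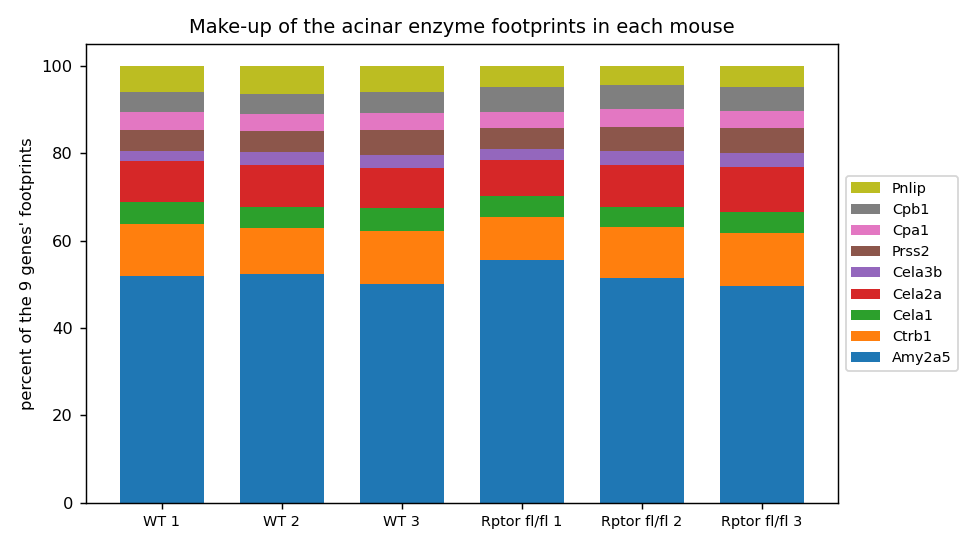
Share of each gene in the footprints on the 9 enzyme genes, in percent, for each of the 6 mice. Amy2a5 holds about the same share in all bars, and the Pnlip band at the top is narrower and the Cpb1 band wider in the 3 Rptor fl/fl mice.

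Other secreted products of acinar cells were also present in the mice. Of the 33 genes on that list, 29 were in the files and 22 were tested, with a median log2 fold change of 0.42. Over all 11515 genes tested, 861 rose and 687 fell at the same threshold. In Rptor fl/fl mice 4 rose: Try5, a trypsinogen (1.00, SE 0.24, adjusted p 0.0131), Reg2 (1.103, adjusted p 0.000851) and Reg3d (1.40, adjusted p 0.00957), both of the Reg family of secreted lectins, and Zg16 (0.44, adjusted p 0.000229). The 2 that fell were Pnliprp2, a lipase of milk and plant fats (-0.42, adjusted p 0.0136), and Reg1 (-0.41, adjusted p 0.00499). Some of these are also gut products. Zg16, a granule lectin that goblet cells make, held 3809 to 5184 CPM in the mice and 2.71 to 47.6 in organoid footprints, and Reg1 reached 878 in organoid footprints. Spink1, the trypsin inhibitor of acinar cells, held 975 to 1109 in the mice and at most 13.2 in organoid footprints.

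Ptf1a and Rbpjl, subunits of the complex that drives acinar enzyme genes, held 0 to 2 and 0 to 3 footprints per mouse. Other factors of acinar cells, which the intestine also expresses, were present, with Gata4 at 70.2 to 109 CPM and Nr5a2 at 20.7 to 39.2. Of the 13 genes for the acinar cell's apparatus, 4 stayed at or under 3 footprints in every mouse. Of the 8 tested, 0 rose and 1 fell, Gata4 (-0.33, adjusted p 0.0353). Gp2, the main protein of the zymogen granule membrane, held 13.9 to 38.2 CPM in the mice and 0 in organoid footprints. The apparatus list as a whole was not higher in the mice. It summed to 0.0288% to 0.0338% of footprints in the WT mice and 0.0288% to 0.0306% in the Rptor fl/fl mice. In organoid footprints it summed to 0.0251% to 0.0343%. Rab3d and Gata4 reached higher CPM in organoid footprints than in any mouse. For Slc39a5 and Nr5a2, as for Gp2, the highest value was in a mouse. The islet hormones Ins1 and Ins2 held 0 to 1 and 0 to 4 footprints per mouse. Of the intestinal side of zymogen control, Tmprss15, which codes for enteropeptidase, held 37.1 to 73.6 CPM in the mice (log2 fold change 0.51, adjusted p 0.0612), and the hormones Sct and Cck held 29.8 to 41.4 and 18.1 to 34.4. Tmprss15, Sct and Cck did not pass the test. They are on a list of 8 genes for zymogen activation and secretion signals, which also holds the acinar products Spink1 and Try5. Of the 8, 6 were tested and 1 rose, the trypsinogen Try5 already named above.

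RNA of further cell types was in the mouse libraries, and some of it moved with genotype. The counts below stand beside 861 genes higher and 687 lower among all 11515 tested. Fat cell genes summed to 0.0121% to 0.0141% of footprints in the WT mice and 0.0191% to 0.0249% in the Rptor fl/fl mice, and 4 of 6 rose, among them Cfd (log2 fold change 1.27, adjusted p 8.26e-05) and Adipoq (1.12, adjusted p 0.00511). Red cell genes summed to 0.0158% to 0.0183% in WT and 0.0803% to 0.0951% in Rptor fl/fl, and 4 of the 4 tested rose, among them the globin Hba-a2 (2.42, adjusted p 8.36e-10). In organoid footprints red cell genes summed to 0.000145% to 0.0232%, with SCe cultures 1 and 3 at 0.0232% and 0.0127%. Where these organoid reads came from was not tested. Plasma and immune genes summed to 1.93% to 2.07% in WT and 1.70% to 1.80% in Rptor fl/fl, with 3 of 9 lower, among them Igha (-0.27, adjusted p 0.0067). Smooth muscle genes summed to 0.177% to 0.192% in WT and 0.156% to 0.175% in Rptor fl/fl, with 1 of 8 higher and 2 lower.

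Epithelial lists moved too, beside the same 861 genes higher and 687 lower among all 11515 tested. Paneth cell genes summed to 1.26% to 1.36% in WT and 0.643% to 1.01% in Rptor fl/fl, and 7 of the 9 tested fell, led by the defensin Defa21 (-1.54, adjusted p 4.33e-09). Enterocyte genes summed to 5.62% to 5.72% and 5.99% to 6.34%, with 4 of 10 higher and 1 lower, and goblet genes to 2.60% to 2.65% and 2.97% to 3.25%, with 4 of 7 higher. Of 9 tested stem cell genes, 2 fell, Olfm4 (-0.63, adjusted p 6.31e-05) and Ascl2 (-1.69, adjusted p 0.00765). The 2 tested islet genes, Sst and Gcg, which enteroendocrine cells also make, gave -0.27 and -0.18 and did not pass. On the salivary and gastric list only Amy1 was tested, and it gave 0.15 (adjusted p 0.750). Among the WT mice, where the enzymes differed by 2.35 times, the salivary and gastric list, which holds Amy1, differed by 2.12 times and each other list by 1.02 to 1.199 times. The salivary and gastric list rested on 11, 17 and 91 footprints there. The other acinar secreted list gave 1.19 times, with Zg16, Spink1 and Reg1 its highest genes. Zg16 averaged 3854 ± 38.4 CPM in WT, while the trypsinogens Try4 and 2210010C04Rik averaged 202 ± 72.8 and 177 ± 81.1 (SD, n = 3). What part any of these tissues has in the enzyme values was not tested.

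**Figure D5:**
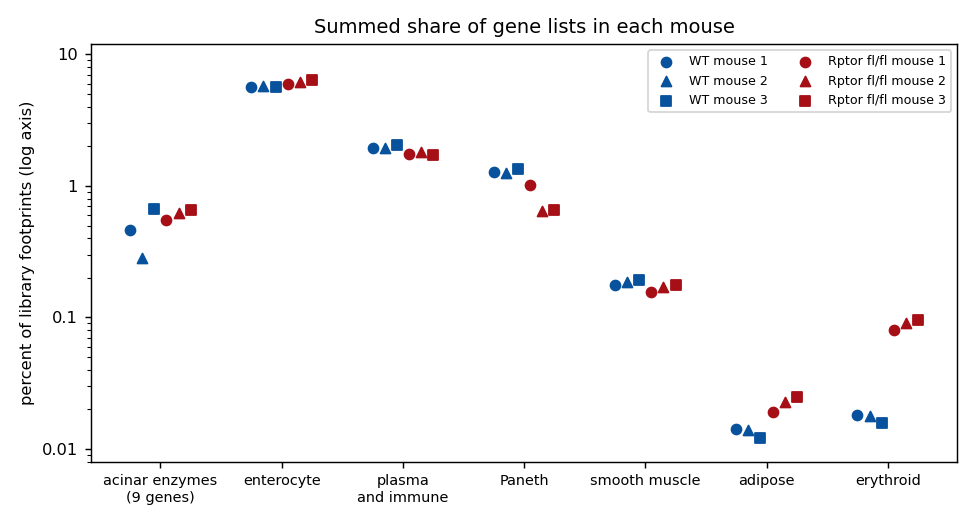
Percent of each mouse's footprints (log axis) on the 9 enzyme genes and on 6 cell type lists, blue WT and red Rptor fl/fl, with symbols for mice 1 to 3. The enzyme share spreads widely among the WT mice, from 0.285% to 0.669%. The share of each of the 6 cell type lists does not overlap between the genotypes.

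The genes most like the enzymes over the 6 mice were mostly enzymes of the same secretion. Among 8524 other genes with a mean of at least 10 CPM, those with the highest Pearson r with the summed enzymes included the trypsinogens 2210010C04Rik (0.994) and Try4 (0.992), the chymotrypsin-like Ctrl (0.985), Puf60 (0.984), Kif3b (0.984), the bile salt-activated lipase Cel (0.982), Ctrc (0.981), Lzic (0.976) and Adap2 (0.971). Puf60, Kif3b, Lzic and Adap2 were not on the list of other acinar products and varied less between mice: Puf60 held 100.4 to 108 CPM, where Try4 held 125 to 293. The likeness is over 6 libraries and takes no account of the size of a change.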

How the data were processed

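Per the labels and the study's methods, adapters were removed with cutadapt 1.18, and Salmon 1.1.0 quantified RNA-seq reads on protein-coding transcripts of GENCODE vM21 and footprints, cleaned of rRNA, on sequences trimmed around the coding part. The deposited values are estimated counts per transcript from Salmon (NumReads). Each file also holds the length and effective length of every entry. In the mouse files the entries were longer than the coding sequence, and in the organoid footprint files separate entries hold the 5′ part (suffix _uORF), which were left out. A deposited table of the authors' own translation efficiency comparison (fold changes and p-values) was not used.

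Here counts were summed per gene, technical libraries were summed per organoid culture, and values were rounded. CPM is the count of a gene scaled to a gene-level total of 1000000 per replicate, and CPM per kilobase divides it by the length of the counted entry. Comparisons used edgeR 4.0.16 (filterByExpr, TMM normalisation, quasi-likelihood test, Benjamini-Hochberg adjustment over all genes tested, threshold 0.05) in R 4.3.3, with DESeq2 1.42.0 as an alternative, and the script was tested on simulated data. Exact intervals for ratios used scipy. The total per replicate, 772077 to 67598868 reads, sets the counting error. Intervals and the floor of 3 reads cover counting error only, and reads carry no molecular identifiers. The labels give separate mice and organoid cultures as replicates, and the study calls the WT and Rptor fl/fl RNA cultures biological replicates. For the other organoid cultures the source of each culture was not established here, and their p-values may measure technical spread.

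All 9 genes were named. From each other list the 5 genes with the highest mean level in the mice and up to 5 that passed the test could be named, together with the 10 genes most alike, of which 1 is not reported here. The genes, lists and tests were chosen with earlier results of these data known. Enzyme names match symbols in GENCODE vM21, and promoter sequences are from RefSeq (GRCm38.p6), where all 9 genes had 1 entry each.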

Additional observations from a re-analysis of the deposited data

Results flagged for a closer look

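Cela1 had footprints on a 5′ entry that no comparison above uses. In Rptor fl/fl organoid culture 3 the _uORF entry of Cela1 held 4 reads, above the 3 that a count of 0 allows, and the other organoid cultures held 3 or fewer. No other enzyme gene had a read on such an entry.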

How the results depend on the processing

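In the mice, 1 of the 9 genes passed the test as reported and 0 with DESeq2 and its own size factors. The count was 5 without a filter on low counts, 2 with the replicate block, and 0 to 8 when leaving out 1 mouse. Over all genes these settings called 1548, 969, 1768, 1312, and 897 to 1954. Library sizes without acinar genes, or an offset for effective length, left the count of the 9 at 1, beside 1544 and 1426 over all genes. For Rptor fl/fl against WT organoid RNA the count of the 9 was 0 as reported. It was 1 with DESeq2, without the filter, with the replicate block and with technical libraries as separate replicates. Over all genes the calls were 3195 as reported, then 3698, 3154, 4751 and 7208. Against SCe organoid RNA the count of the 9 was 1 as reported, 2 with technical libraries as separate replicates and 1 to 2 when leaving out 1 SCe replicate. Over all genes the calls were 6452, 8513, and 3959 to 9101. In organoid footprints the count of the 9 was 0 under every alternative run, where 669 to 2684 of all genes passed. Of 159 single-gene values under alternatives, 131 kept direction and side of the threshold, 20 newly passed, 5 no longer passed and 3 changed sign. Those 3 were small: Pnlip in the mice (-0.20 to 0.46 when leaving out 1 mouse, with -0.20 without WT mouse 2 and -0.03 without Rptor fl/fl mouse 3) and Cela1 in organoid RNA against WT (-0.21 to 0.02 when leaving out 1 culture, with 0.019 without WT culture 2). The cause was not tested. All 9 genes stayed above every organoid library with 5′ entries added, with TMM scaling, with near-identical families summed and without each mouse, and their pooled share of mouse footprints ran from 0.567% to 0.698%, against 0.600% as reported.

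By number alone the samples could not be taken as paired: deviations of same-numbered mice correlated at -0.02 to 0.02 and those of same-numbered organoid footprint cultures at -0.05 to 0.03. The organoid RNA cultures of WT and Rptor fl/fl gave 0.415. With 2 cultures in each group both pairs must give the same value and unlike numbers its opposite (-0.415), so this is a single value. Those of Rptor fl/fl and SCe gave 0.338 for number 1 and 0.306 for number 2. Rptor fl/fl culture 2 reached 0.302 with an unlike-numbered SCe culture, so there the same number did not stand apart. The WT and Rptor fl/fl numbers may mark something shared, which these values cannot settle. The paper's methods describe an extra set of Rptor fl/fl animals, induced in vitro to give paired samples. They do not say which sequenced cultures came from that set. With the replicate block, Ctrb1 in organoid RNA against WT gave 1.13 (edgeR adjusted p 0.00441), beside 1.17 (adjusted p 0.0573) without it. The call for Ctrb1 thus depends on whether the cultures are taken as paired. Depth limits the organoid values of every gene but Ctrb1 and Cela1, and Ctrb1 in SCe.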

Other observations

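The few organoid footprints on the other enzyme genes lay mostly in one culture. Rptor fl/fl organoid culture 1 held 11 of the 16 Amy2a5 footprints, all 9 of Prss2, 4 of the 5 of Cela2a, both of Cpa1 and the single one of Cpb1. Cela3b had 1 there and 1 in SCe culture 1.

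Footprints and RNA of Ctrb1 did not run in parallel in organoids. In SCe organoids the 16 footprints among 7329732 compare with 1 RNA read among 154442373, a ratio of CPM of 337 (95% counting interval 52.4 to 14138). In Rptor fl/fl organoids the ratio was 0.284 (0.236 to 0.339). For Cela1 it was 0.950 (0.756 to 1.179) in SCe and 1.06 (0.908 to 1.24) in Rptor fl/fl. The reference sequences of the RNA and footprint files differ, and the difference was not tested.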
